A study of Rattus norvegicus with 18 samples.

Results

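The genes Cryab, Hspb6, Hspe1 and Pdia3 encode 4 protein chaperones, proteins that keep other proteins folded. They were measured in whole kidneys of ARF rats, 35 days into recovery after 52 min of renal ischemia and reperfusion, and of sham-operated rats. ARF stands for acute renal failure, which this injury causes. Each gene was represented by 1 clone, so the set is 4 of the 1489 clones with 1 gene symbol among 2304 clones on a spotted cDNA array. The 4 genes were picked by symbol, with earlier values of the ARF-sham comparison of these same arrays in view. Their ARF-sham values are therefore given as a description with no test. Cryab and Hspb6 act mainly in the cytosol, Hspe1 in the mitochondrial matrix and Pdia3 in the endoplasmic reticulum (ER).

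The samples were total RNA of 6 ARF rats and 6 sham-operated rats, joined by the labels into 6 pairs, A to F. The RNAs of a pair were hybridised together on 2 arrays with the dyes exchanged, so that the sham RNA carried Cy3 on 1 array and Cy5 on the other. On 6 more arrays (R1 to R6) both channels held RNA of sham rats. Strain, sex and age of the rats are not given in the sources used here. A sham-operated rat goes through surgery without the ischemia. RNA came from whole kidney, so fewer cells of a type and less RNA per cell cannot be told apart.

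The deposited value is a normalized log ratio of the 2 channels, and neither its log base nor its direction is stated. Where sham carried Cy3, ARF is channel 2, and where sham carried Cy5, ARF is channel 1. As deposited, the values of the 2 arrays of a pair correlated positively over clones in all 6 pairs (r of 0.20 to 0.58). On this basis both were taken to run the same way and no sign was turned. A positive r cannot settle this. With every array deposited as channel 2 over channel 1, a dye bias of the clones would also give it. Then the mean of both arrays would hold the dye bias, and the difference between them would hold ARF against sham. A value above 0 is taken here to mean more RNA in ARF than in sham kidneys. This direction is assumed from the arrays with sham in Cy3, and with the opposite convention every sign below would turn. Of 2304 clones, 947 had values in both dye orientations of at least 4 pairs. These are the clones behind the background shares for ARF against sham, except those of the rat levels, which rest on 318 clones. The arrays held values for 914 to 2786 of 4608 spots. Replication is by rats and not by spots, and array error and empty spots also limit the precision.

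Small heat shock proteins are compact chaperones that form large assemblies and hold unfolding proteins in solution without using ATP. Cryab (alphaB-crystallin) is known from the lens, from muscle and from the kidney medulla, and Hspb6 (Hsp20) from smooth and striated muscle. Hspe1 (Hsp10) forms the lid of the chamber in which Hspd1 (Hsp60) folds proteins imported into mitochondria. Pdia3 (ERp57) is a disulfide isomerase that works with the lectin chaperones calnexin and calreticulin on new glycoproteins.

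Heat shock factors bind alternating, inverted GAA and TTC units in the promoters of many chaperone genes. These elements are the known common control of the heat shock family, and they differ between Hspb6 and Hspe1, the 2 members shown. No promoter window was available for Cryab or Pdia3 in the sources used here, so their promoters were not searched. The sequences are from RefSeq (GRCr8) and run from 250 bases before to 50 bases after the annotated start. Capitals mark every match to TTCNNGAA or GAANNTTC, motifs that read the same on both strands and may overlap each other.
Hspb6, chr1:94934122-94934421, plus strand: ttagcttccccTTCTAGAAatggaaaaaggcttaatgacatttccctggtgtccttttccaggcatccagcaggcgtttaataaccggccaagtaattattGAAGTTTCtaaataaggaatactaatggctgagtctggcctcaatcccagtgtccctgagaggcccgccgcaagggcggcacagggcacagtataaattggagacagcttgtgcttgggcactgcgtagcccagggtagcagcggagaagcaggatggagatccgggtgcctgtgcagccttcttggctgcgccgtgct
Hspe1, chr9:64084077-64084376, plus strand: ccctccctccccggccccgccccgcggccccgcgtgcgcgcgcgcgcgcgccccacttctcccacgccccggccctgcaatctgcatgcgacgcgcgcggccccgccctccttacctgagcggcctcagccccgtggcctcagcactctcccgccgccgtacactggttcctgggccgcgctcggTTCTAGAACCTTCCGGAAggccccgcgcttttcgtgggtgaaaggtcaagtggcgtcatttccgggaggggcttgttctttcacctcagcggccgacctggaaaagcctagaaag

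The Hspb6 window held 2 separate matches. The Hspe1 window held 3 overlapping matches that together form 1 run of 4 alternating units, from -65 to -48 relative to the start. Of all 33469 promoter windows of this length, 15.9% held TTCNNGAA or GAANNTTC, and 0.0478% (16 windows) held a run of 4 such units in alternation, each separated from the next by any 2 bases. These are matches of letters, not measured binding sites.

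Cryab was the member with the lower values in ARF kidneys. Its pair values, the mean of both dye orientations, were -0.91 in pair A, -0.41 in B, -0.85 in C, -0.083 in D, -0.61 in E and -0.77 in F. All 6 lay below 0, and pair D lay much nearer to 0 than the rest. The mean was -0.61 ± 0.32 (SD, n = 6 pairs), which would be an ARF over sham ratio of 0.657 if the base is 2, of 0.545 for natural logs and of 0.247 for base 10. Over all 947 clones the median of such means was 0.015, 7.18% of clones were below 0 in every pair measured, and 13.4% had 1 sign in every pair. This is the contrast that chose Cryab, in which 0.634% of clones were called lower by limma.

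The pairs ran in the same order, A, C, F, E, B and D from lowest to highest, in both dye orientations. With sham in Cy3, Cryab had -0.70, -0.11, -0.60, 0.14, -0.37 and -0.56 in pairs A to F. With sham in Cy5 it had -1.12, -0.70, -1.11, -0.31, -0.85 and -0.99. The array with sham in Cy5 gave the lower value in every pair. The mean was -0.37 ± 0.32 with sham in Cy3 and -0.85 ± 0.31 with sham in Cy5 (SD, n = 6 each), so the size of the difference depended on the orientation while its sign turned in pair D only.

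**Figure D1:**
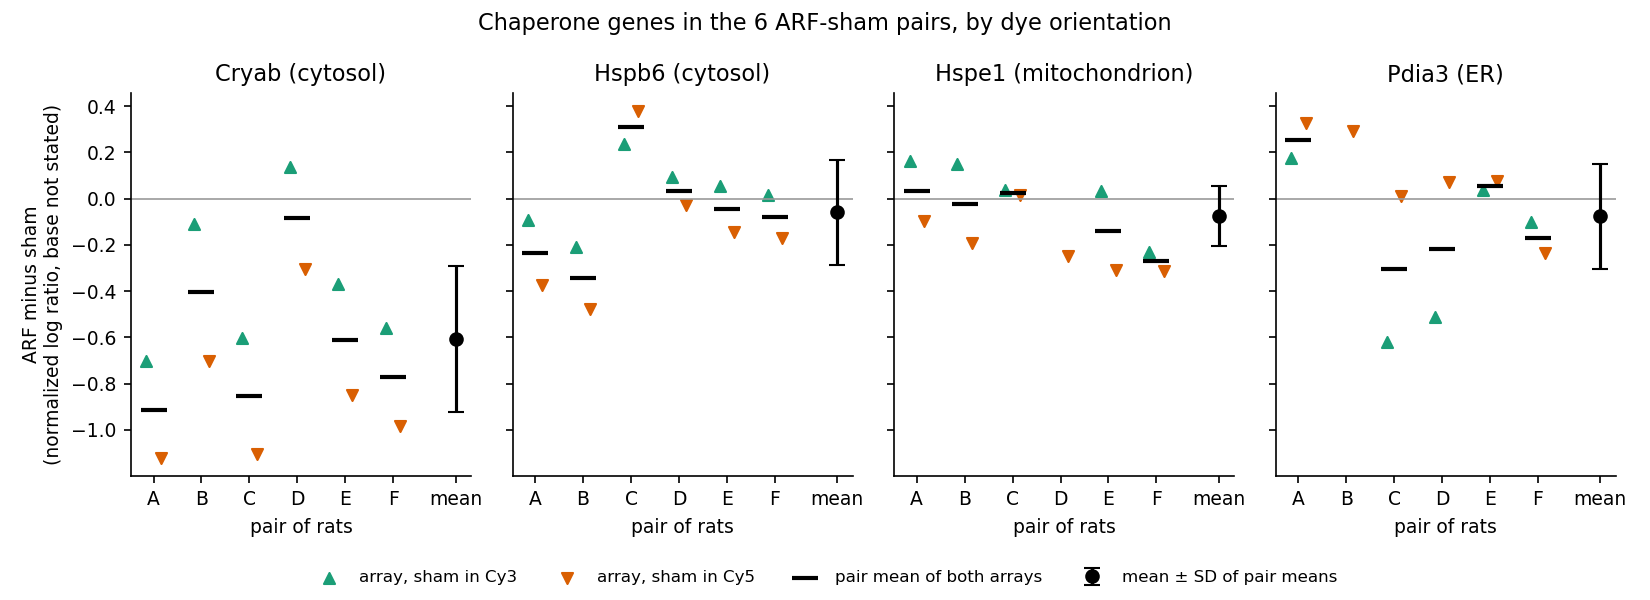
ARF minus sham log ratios of the 4 genes in pairs A to F, with a triangle for each array by dye orientation, a dash for the mean of both arrays and a point with bars for the mean ± SD of the pair means. Cryab lies below 0 in all 6 pair means, with each sham-in-Cy5 array lower than its partner, whereas the pair means of Hspb6, Hspe1 and Pdia3 lie on both sides of 0.

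The columns of the sham-sham arrays were deposited in another row order than those of the ARF-sham arrays, as judged from where values are present, and adjacent blocks of their rows were exchanged. That choice was made with the values in view, and all rat levels and sham-sham values given below rest on it.

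Cryab was also among the 318 clones with values on all 18 arrays, which allowed a level for each rat by least squares, relative to the mean sham rat. The ARF rats had -0.79 (A), -0.45 (B), -0.91 (C), -0.29 (D), -0.54 (E) and -0.66 (F). The sham rats had 0.12 (A), -0.042 (B), -0.060 (C), -0.21 (D), 0.070 (E) and 0.12 (F). Every ARF rat lay below every sham rat, and in the pair with the smallest difference, D, the sham rat was the lowest of the sham rats and the ARF rat the highest of the ARF rats. Of the 318 clones, 1.26% had all ARF rats below all sham rats and 1.57% had no overlap in either direction, counts from the contrast that chose Cryab. The levels also depend on how well the sham-sham arrays fit together. Around the closed loop of sham rats A, F, B, D and E the 5 array values would sum to 0 without error or dye effect, and a dye effect shared by all arrays would leave a net of 1 such effect. For Cryab they summed to 0.79, against a median size of 0.29 over the 466 clones with all 5 arrays. Of these clones 49 had a larger sum, and for Cryab the sum exceeded the whole range of the sham levels. No dye effect was removed from the sham-sham values behind these levels.

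**Figure D2:**
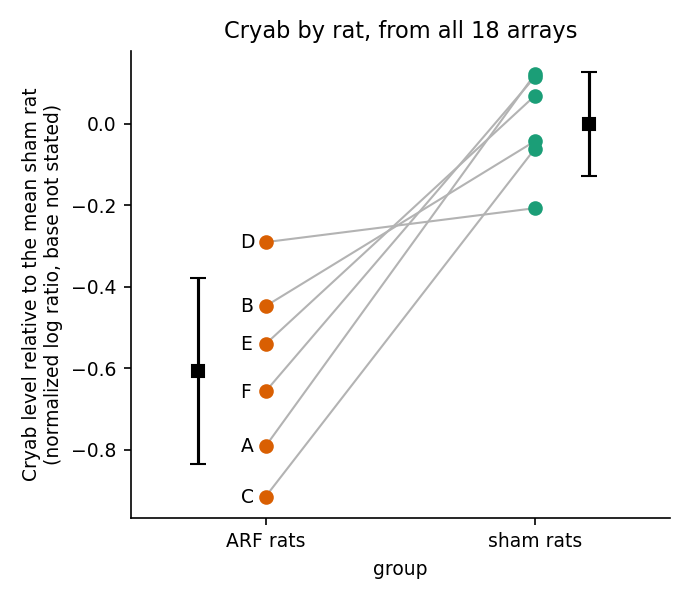
Levels of Cryab in the 6 ARF and 6 sham rats relative to the mean sham rat, as log ratios, with lines joining the rats of a pair and squares with bars for the mean ± SD. The ARF rats lie between -0.91 and -0.29 and the sham rats between -0.21 and 0.12, with pair D closest together.

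Hspb6, the second small heat shock protein, did not share this pattern. Its pair values were -0.23 in A, -0.34 in B, 0.31 in C, 0.034 in D, -0.044 in E and -0.077 in F. They lay on both sides of 0, with pairs A and B low and pair C high, and the mean was -0.059 ± 0.23 (SD, n = 6). Pair C, among the lowest for Cryab, was the highest for Hspb6. The mean was 0.017 with sham in Cy3 and -0.14 with sham in Cy5, so its sign followed the orientation, as it did in 49.4% of the 947 clones. Cryab was lower than Hspb6 in 6 of 6 pairs, by a mean of -0.55 ± 0.41, which ran from -1.16 in pair C to -0.061 in pair B.

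Hspe1, the mitochondrial member, had pair values of 0.033 in A, -0.022 in B, 0.026 in C, -0.14 in E and -0.27 in F. In pair D it had a value on the array with sham in Cy5 only, -0.25, and no pair value. The mean was -0.074 ± 0.13 (SD, n = 5), with pairs A, B and C near 0 and pair F lowest. With sham in Cy3 it had 0.16, 0.15, 0.038, 0.033 and -0.23 in A, B, C, E and F. With sham in Cy5 it had -0.098, -0.19, 0.014, -0.31 and -0.31 in the same pairs. The means of the orientations were 0.031 (n = 5) and -0.19 (n = 6), so Hspe1 also changed sign with the dye. Cryab was lower than Hspe1 in 5 of 5 pairs, by a mean of -0.64 ± 0.26.

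Pdia3, the ER member, had 0.25 in pair A, -0.30 in C, -0.22 in D, 0.056 in E and -0.17 in F. Pair B had a value on the array with sham in Cy5 only, 0.29. The pair values lay on both sides of 0 with a mean of -0.077 ± 0.23 (SD, n = 5). Its orientations differed most in pairs C and D, where the arrays with sham in Cy3 gave -0.62 and -0.51 and those with sham in Cy5 gave 0.011 and 0.074. The means were -0.20 with sham in Cy3 (n = 5) and 0.091 with sham in Cy5 (n = 6), the opposite order to the other 3 genes. Cryab was lower than Pdia3 in 4 of 5 pairs (mean -0.57 ± 0.46), and in pair D it was higher by 0.14.

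The members of different compartments other than Cryab lay close together. Hspb6 minus Hspe1 averaged -0.0036 ± 0.27 (n = 5), Hspb6 minus Pdia3 0.074 ± 0.41 (n = 5) and Hspe1 minus Pdia3 -0.046 ± 0.26 (n = 4), each with both signs among the pairs. These differences between Hspb6, Hspe1 and Pdia3 were smaller than their spread over pairs.

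The dye effect, the sham-in-Cy3 array minus the sham-in-Cy5 array of a pair divided by 2, was not used to choose the genes and was tested with limma over all 947 clones. It is a dye effect only if both arrays of a pair run the same way, as assumed above. For Cryab it was 0.21 in A, 0.30 in B, 0.25 in C, 0.22 in D, 0.24 in E and 0.21 in F. These 6 values were all above 0 and close together, with a mean of 0.24 ± 0.032 (SD, n = 6) and a Benjamini-Hochberg adjusted limma p of 0.0042. The median SD over pairs was 0.099 for all clones. Of the 4 members only Cryab passed, against 16.1% of all clones, 10.5% above 0 and 5.60% below 0. Cryab and Hspe1 had dye effects of 1 sign in every pair measured, as had 25.3% of clones.

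The other 3 members had dye effects that did not pass. Hspe1 had 0.13, 0.17, 0.012, 0.17 and 0.040 in pairs A, B, C, E and F, all above 0 (mean 0.10, limma adjusted p = 0.090). Hspb6 had 0.076 ± 0.078 with 5 of 6 values above 0 (limma adjusted p = 0.16). Pdia3 had -0.13 ± 0.17 with 4 of 5 values below 0 (limma adjusted p = 0.16). Without pair F, the pair with a value above 0, Pdia3 had -0.18 and passed (limma adjusted p = 0.044, n = 4). Under that assumption the dye effect cancels in a pair value. It does not cancel in a value from 1 array, such as the Hspe1 value in pair D or the Pdia3 value in pair B.

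The sham-sham arrays compared kidneys without the injury. Each value holds array error as well as any difference between the 2 rats. The values are the channel 2 rat minus the channel 1 rat, and they come from single arrays, on which a dye effect does not cancel. Cryab had 0.15 on R1 (rats F and A), -0.21 on R2 (E and A), 0.00079 on R3 (F and B), -0.0075 on R4 (D and B), 0.18 on R5 (F and C) and 0.43 on R6 (E and D). Its largest size here, 0.43, was below the size of 4 of its 6 ARF-sham pair values, those of pairs A, C, E and F. The loop sum of 0.79 for Cryab was larger than any of these sham-sham values, so they do not measure differences between rats alone.

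For Pdia3 the sham-sham values had the larger median size. Its sham-sham values were 0.20 on R1, -0.55 on R2, -0.56 on R3, -0.30 on R4, -0.24 on R5 and -0.14 on R6. The median size for Pdia3 was 0.22 in the ARF-sham pair values and 0.27 on the sham-sham arrays. For Cryab it was 0.69 in the ARF-sham pair values and 0.16 on the sham-sham arrays. These sizes are unlike measures, because a pair value is the mean of both dye orientations. A sham-sham value comes from a single array and holds its array error and any dye effect. Whether Pdia3 varied more between sham rats than between ARF and sham rats is therefore not shown. The loop of sham rats summed to 0.87 for Pdia3, a size passed by 35 of 466 clones.

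Hspe1 had 0.043, -0.046, 0.30, 0.13, 0.22 and 0.18 on R1 to R6, 5 of 6 above 0, and its loop sum was 0.10. Its median size was 0.033 in the ARF-sham pair values and 0.15 on the sham-sham arrays, again unlike measures. Hspb6 had -0.084, 0.12, 0.050, 0.11 and 0.092 on R1, R2, R4, R5 and R6 and no value on R3. None of the 4 members passed in the limma fit of the sham-sham arrays, in which 2.80% of 857 clones passed, 0.817% above 0 and 1.98% below 0. Pdia3 (limma adjusted p = 0.11) and Hspe1 (limma adjusted p = 0.19) had an unadjusted p under 0.05, as had 23.3% of clones. Without R1, the array on which it was above 0, Pdia3 had -0.36 and passed (limma adjusted p = 0.024, n = 5 arrays). The arrays share sham rats, so n counts arrays and not animals.

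The mean on the sham-sham arrays had the sign of the dye effect in all 4 members, as it had in 61.5% of the 668 clones tested in both. It was 0.091 for Cryab, 0.059 for Hspb6, 0.14 for Hspe1 and -0.26 for Pdia3, beside dye effects of 0.24, 0.076, 0.10 and -0.13. Without R6 the mean for Cryab was 0.022. The labels do not give the dyes of the sham-sham arrays, and the part of the dye in these means was not tested.

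**Figure D3:**
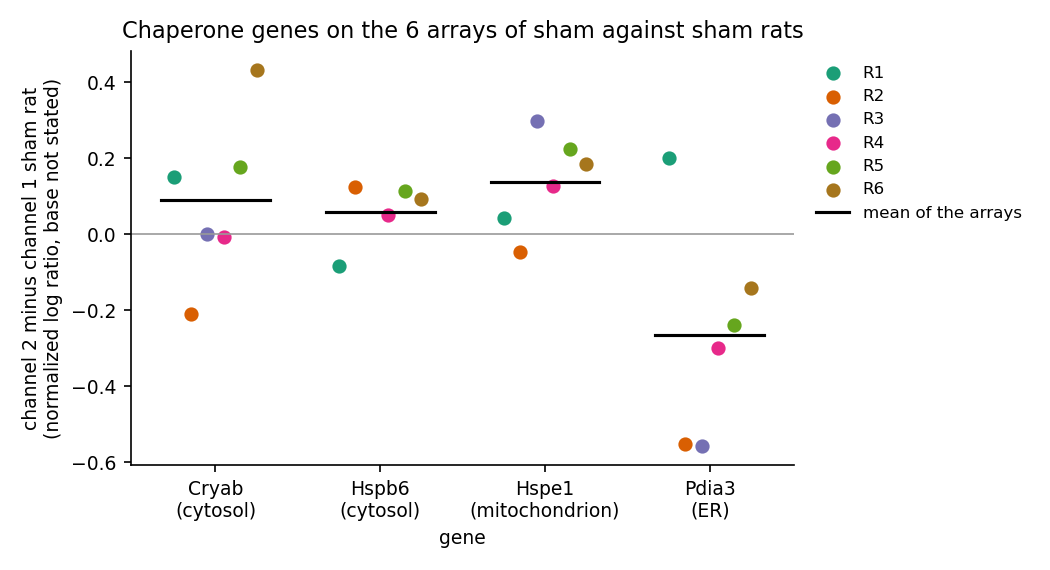
Log ratios of the 4 genes on the 6 arrays that compared sham rats, as channel 2 minus channel 1, with 1 point per array and a line at their mean. Pdia3 spreads from -0.56 to 0.20 and Cryab from -0.21 to 0.43, while Hspe1 runs from -0.046 to 0.30 and Hspb6 from -0.084 to 0.12.

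Other chaperones were taken from lists by compartment. The lists name 120 chaperone genes, of which 20 had a clone with that symbol here and 15 were measured in at least 4 pairs. Of the 11 that are not among the 4 members, 0 passed for ARF against sham (limma, Benjamini-Hochberg over 947 clones), and 0 had an unadjusted p under 0.05. Over all clones 0.950% passed and 14.7% had an unadjusted p under 0.05. Of these 11 means 5 were below 0, their median was 0.021 and their range -0.13 to 0.13, beside a median of 0.015 over all clones. The median size of the 11 means was 0.083, against 0.079 over all clones, and 6 of the 11 were larger than 0.079.

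In the cytosol, the Hsp70 co-chaperone Dnaja2 had -0.13 ± 0.26 (n = 5) and St13, which joins Hsp70 to Hsp90, -0.092 ± 0.41 (n = 5). The prolyl isomerase Fkbp1a had 0.033 ± 0.16 and Nudc, a co-chaperone of Hsp90, 0.021 ± 0.11 (n = 6 each). Each of these 4 genes had pairs on both sides of 0. Dnaja2 and St13 were above 0 in pairs A and B and below 0 in D, E and F, an order unlike that of Cryab.

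In mitochondria, Grpel1, the nucleotide exchange factor of mitochondrial Hsp70, had -0.095, -0.024, -0.081, -0.060, -0.13 and -0.16 in pairs A to F. All 6 were below 0 and small, with a mean of -0.093 ± 0.050 (limma adjusted p = 0.43). The mitochondrial list thus rests on 2 measured genes, Hspe1 and Grpel1, both with means below 0.

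In the ER, 7 genes were measured, 3 with means below 0 and 4 above, with a median of 0.055. The disulfide isomerase Pdia6 had 0.13 ± 0.28 (n = 4) and the ER protein Erp29 0.092 ± 0.097 (n = 6). P4hb, the classic protein disulfide isomerase, had -0.039 ± 0.095 and the lectin chaperone Calr, a partner of Pdia3, -0.010 ± 0.14 (n = 6 each). The collagen chaperone Serpinh1 had 0.083 ± 0.20, and the prolyl isomerase Ppib 0.055 ± 0.055 (n = 6 each). Both had a dye effect past the threshold, 0.14 ± 0.024 for Serpinh1 and 0.15 ± 0.092 for Ppib (limma adjusted p = 0.016 and 0.028). Ddit3 (CHOP), a transcription factor that ER stress is known to induce, had -0.049 ± 0.17 (n = 5, limma adjusted p = 0.75).

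**Figure D4:**
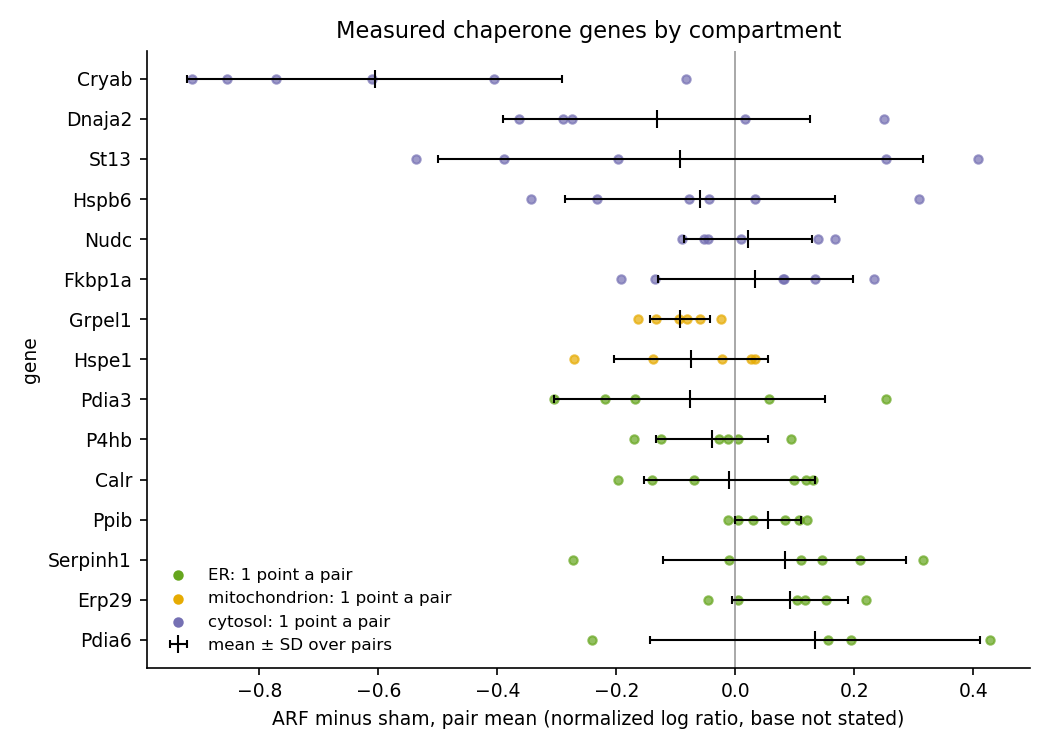
ARF minus sham pair values of the 15 measured chaperone genes, grouped by compartment, with 1 point per pair and a tick with bars for the mean ± SD. Cryab stands at -0.61, and the means of the other 14 genes lie between -0.13 and 0.13.

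The 5 clones whose pair values were most like those of Cryab, by Pearson's r over the 6 pairs among 419 named clones measured in every pair, were the antioxidant enzyme Prdx6 (0.957), the cytochrome oxidase subunit Cox5b (0.930), the ribosomal protein Rpsa (0.926), the transcription factor Egr4 (0.920) and the brush border peptidase Anpep (0.918). Their means differed from that of Cryab, with -0.094 for Prdx6 and 0.092 for Anpep. Each had its highest value in pair D, 0.42 for Prdx6 and 0.36 for Anpep, where Cryab was also highest. For Hspb6 they were the lactate dehydrogenase subunit Ldhb (0.969), the urea cycle enzyme Asl (0.959), the kallikrein Klk1b3 (0.944), the aminotransferase Bcat2 (0.942) and the glucose-6-phosphatase G6pc1 (0.923). Each of these was highest in pair C, with 0.64 for G6pc1. Between Cryab and Hspb6 r was -0.12. All points share the same 12 rats and arrays, and with 6 points such values are descriptions only.

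Values of kidney cell type markers in the same comparison are given beside those of Cryab. The markers were chosen with earlier results of these data known, so their values are descriptions. Of all 947 clones, 435 had means below 0. Of the 12 listed loop and distal tubule markers 6 were measured, 4 with means below 0. The list median was below 0 in 6 of 6 pairs, from -0.46 in pair F to -0.089 in C. Egf, a growth factor made in the distal tubule, had -0.34 ± 0.16 (n = 6). The 2 with means above 0 were Slc12a3 with 0.12 ± 0.27 (n = 5) and Pvalb with 0.12 ± 0.11 (n = 6). Proximal tubule markers had 7 of 10 means below 0 (list median -0.093), with the pair median above 0 in pair C only. Of the 18 listed genes of the inner medulla, osmolyte control and the collecting duct, 4 were measured, with 2 means below 0 and a list median of 0.0012. Among these, the osmolyte enzyme Akr1b1 had 0.59 in A, -0.39 in C, -1.03 in D, 0.89 in E and 0.70 in F, and so ran in an order unlike that of Cryab, with pair D lowest. The water channel Aqp3 had 0.055 ± 0.32 (n = 6). The sodium channel subunit Scnn1a was below 0 in all 5 pairs measured, with -0.22 ± 0.10, and Hsd11b2, which inactivates glucocorticoids, had -0.052 ± 0.14 (n = 6).

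Smooth muscle is another source of Hspb6 and Cryab. Of its 12 listed markers 2 were measured, Tagln (0.41 ± 0.33, n = 5) and Tpm1 (0.18 ± 0.17, n = 6), both with means above 0. Hspb6, with -0.059 ± 0.23, had pairs on both sides of 0. Of 4 measured markers of striated muscle and fat, 2 had means below 0 and 2 above (list median -0.022). The 2 measured class II markers, RT1-Ba and RT1-Db1, had means of 0.24 and 0.17. A ratio gives no level, so whether a marker was expressed at all is not shown by these values. The part of cell composition in the Cryab values was not tested.

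Spots with values were frequent for these 4 genes. Cryab had a value on all 24 spots of the ARF-sham arrays and all 12 of the sham-sham arrays, as did 196 of 2304 clones. Hspb6 had 22 and 8, Hspe1 21 and 12, and Pdia3 21 and 11, beside medians of 10 and 2 over all clones. The 2 spots of a clone on an array differed by a median of 0.069 for Cryab, 0.081 for Hspb6, 0.10 for Hspe1 and 0.063 for Pdia3. For Cryab the largest such difference, 0.28 on array R3, was below the size of 5 of its 6 ARF-sham pair values, all but that of pair D. For Hspb6 the largest was 0.40 on R6, above the size of each of its pair values.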

How the data were processed

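Two-colour cDNA arrays of rat kidney RNA were analysed from the deposited value table. Per the labels, the authors started from ImaGene data, judged spot quality and detection, adjusted weak signals by an earlier method, and deposited normalized log values. The unit is treated as a score, a deposited log ratio whose base and direction are not given in the sources used here. Each array had a mean of 0 and medians ran from -0.042 to 0.029. Empty cells made up 57.1%.

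The table has 4608 spots, taken as 2304 clones whose duplicate lies 1152 rows further on, and the spots of a clone were averaged. Names came from the platform annotation, updated through RefSeq (GRCr8): 1489 clones had 1 symbol (1483 matched), 32 several and 783 none. The sham-sham columns were reordered by exchanging adjacent blocks of 288 rows, chosen after the values were seen. After it, presence of a value correlated with that on the ARF-sham arrays at 0.488, against -0.011 as deposited. In the ARF-sham columns the deposited order fits the names: 25 ribosomal protein clones had a median pairwise r of 0.61, against -0.034 over 10 such clones with the blocks exchanged.

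Both arrays of a pair were averaged to 1 pair value, with the pairing from the labels. Pair values, dye effects and sham-sham values were tested against 0 with limma 3.58.1 (R 4.3.3; intercept, eBayes) in clones with at least 4 values, with Benjamini-Hochberg adjustment over all clones tested and a threshold of 0.05. The procedure was tested on simulated data. The labels name separate rats, and p-values measure the spread between their pairs or arrays.

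The members and lists were chosen with earlier results of these data known. Named were the 4 members, list genes past a threshold, the 2 highest and 2 lowest measured genes of each list, and the 5 clones most like each member measured in all 6 pairs. Calr, the listed genes with few values and the marker genes were named beyond this rule, after their values were seen. Alternatives were array medians, each pair or array left out, each dye orientation alone, pairs on 1 array kept, both spots required, all 6 pairs required, moderation with trend and robust options, and fits with and without a replicate block.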

Additional observations from a re-analysis of the deposited data

Results flagged for a closer look

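Among 34 groups of 4 to 10 values examined for a value far from the rest, 1 value stood apart. It was the dye effect of Hspb6 in pair C, -0.071, where the other 5 pairs had 0.060 to 0.14. Its gap to the nearest pair was 0.626 of the whole range, just past Dixon's critical value for 6 samples. In pair C the second spot of Hspb6 had no value on the array with sham in Cy5, and the array value came from 1 spot. Chance gives such a value in about 1 in 20 groups.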

How the results depend on the processing

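The ARF-sham means of the 4 members moved by less than 1 SD over pairs under every alternative run. Cryab ran from -0.85 (sham in Cy5 only) to -0.37 (sham in Cy3 only), and from -0.71 to -0.55 with each pair left out. Hspb6 ran from -0.17 to 0.017, Hspe1 from -0.19 to 0.031 and Pdia3 from -0.20 to 0.091, each with 1 orientation on the other side of 0. The other listed chaperones and stress factors gave 0 calls in all 15 alternatives. With sham in Cy3 only, 3 of 13 had an unadjusted limma p under 0.05. A dye effect does not cancel in that setting, and the share over all clones in it is not given here, so this count has no background. With the pair as a replicate block over 12 arrays (paired as in the main values) the count was 0 of 12, and 0 of 3 on the levels of the 12 rats, a fit with no replicate block. The count of members with a dye effect was 1, and 1 to 2 with each pair left out, 2 without pair F. The adjusted limma p for Cryab ran from 0.0022 to 0.024. The count of members called on the sham-sham arrays was 0, and 0 to 1 with each array left out, 1 without R1. With the sham-sham rows as deposited only Hspe1 could be tested (0.051, limma adjusted p = 0.72). Signal over background was not analysed here, and empty cells limit Hspe1 and Pdia3 to 5 pairs.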

Other observations

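The listed chaperones measured in fewer than 4 pairs, named after their values were seen, had few values. Ppif, the cyclophilin of the mitochondrial matrix, had -0.12 in pair A, -0.13 in E and -0.083 in F, all below 0. Tcp1, a subunit of the cytosolic chaperonin, had 0.32 in pair A and -0.20 in E. Cdc37, which delivers kinases to Hsp90, had -0.071 in pair B and 0.014 in E. Hspa1l and Timm44 had no pair value and 1 sham-sham value each, on array R2, 0.27 for Hspa1l and 1.69 for Timm44.

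The promoter windows matched by symbol covered 106 of the listed chaperone genes, of which 26 (24.5%) held TTCNNGAA or GAANNTTC, and 2 held a run of 4 units. Over all 33469 windows these shares were 15.9% and 0.0478%. Among the 9 listed genes that had both an array value in at least 4 pairs and a promoter window, 4 held the motif: Hspb6, Hspe1, P4hb and Serpinh1. Their ARF-sham means were -0.059, -0.074, -0.039 and 0.083. They were not compared with the means of listed genes without the motif, and a link between motif and ARF-sham value was not tested.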
